A study of Mus musculus with 4 samples.

Results

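The hypoxia-inducible factor (HIF) genes Epas1, Hif1a, Arnt, Cited2, Egln1, Egln3, Hilpda and Ddit4 were followed across the endothelial cell (EC) subtypes and the other cells of the mouse lung. They are 8 of the 20076 gene rows of the deposited matrix. All were listed with earlier results of these data known, and Cited2 was chosen by its measured difference between WT and ERG CKO capillary ECs of these same libraries, so its values in capillary ECs, and in EC groups that hold them, are given as a description without a test. Single-cell RNA-seq had been performed on whole lungs of 4 mice, with 1 mouse per library and 2 libraries per group. WT mice carried floxed Erg alleles (ERG fl/fl) without Cre, and ERG CKO mice carried the same floxed alleles with CDH5-CreER(T), a tamoxifen-inducible Cre driven by the promoter of the endothelial gene Cdh5. All 4 mice received 5 injections of 0.5 mg tamoxifen, and their lungs were taken 90 days afterwards. The age of these 4 mice was not given, while the paper describes WT and ERG CKO mice of other experiments as young.

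HIFs are transcription factors made of an oxygen-regulated alpha subunit, encoded by Hif1a or Epas1, and a stable partner encoded by Arnt. When oxygen is present, prolyl hydroxylases such as those encoded by Egln1 and Egln3 mark the alpha subunit for degradation through the VHL protein, so that much of the regulation lies in protein stability, which RNA counts do not show. Cited2 encodes a protein that competes with HIF alpha subunits for the coactivators p300 and CBP. Hilpda, which encodes a lipid droplet protein, and Ddit4, which encodes an inhibitor of mTORC1 signalling, are among the genes that HIFs induce, and Ddit4 also answers to glucocorticoids and cellular stress. Epas1 is known for its high expression in the vascular endothelium of the lung.

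The gene starts were examined first, because HIF dimers bind a short core sequence and ERG binds the core shared by ETS factors. RefSeq promoters of build GRCm38.p6 matched 7 of the 8 members, and Epas1 was not matched. The letters ACGTG or GCGTG, searched on both strands as the core of the hypoxia response element, lay within the 250 bases before a listed start in 7 of these 7 genes and in 38.6% of 32851 promoters of the same length. The letters CGGAAG, searched on both strands as 1 form of the ETS core, lay in the window of 1 of the 7 genes, Hilpda, and in 13.6% of all promoters. Other forms of that core were not searched, so windows without CGGAAG may hold them. A match is a description of the letters and not a bound site. The windows of Cited2, the member chosen for that difference, and of Hilpda and Ddit4, the members that passed the test in aCap ECs, are printed 5′ to 3′ on the strand of the gene, with the matched letters in capitals.
Cited2, chr10:17722978-17723227, plus strand: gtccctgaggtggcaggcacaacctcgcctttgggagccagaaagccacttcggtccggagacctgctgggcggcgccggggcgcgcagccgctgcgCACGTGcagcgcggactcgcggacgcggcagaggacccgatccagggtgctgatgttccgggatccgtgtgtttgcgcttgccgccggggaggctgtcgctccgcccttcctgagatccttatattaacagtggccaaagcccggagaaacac
Hilpda, first start, chr6:29272238-29272487, plus strand: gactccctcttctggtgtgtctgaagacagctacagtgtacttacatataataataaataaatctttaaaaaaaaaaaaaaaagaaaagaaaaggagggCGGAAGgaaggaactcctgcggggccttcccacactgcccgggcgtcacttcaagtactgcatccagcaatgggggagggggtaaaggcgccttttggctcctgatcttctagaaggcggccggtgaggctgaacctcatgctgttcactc
Ddit4, chr10:59951771-59952020, minus strand: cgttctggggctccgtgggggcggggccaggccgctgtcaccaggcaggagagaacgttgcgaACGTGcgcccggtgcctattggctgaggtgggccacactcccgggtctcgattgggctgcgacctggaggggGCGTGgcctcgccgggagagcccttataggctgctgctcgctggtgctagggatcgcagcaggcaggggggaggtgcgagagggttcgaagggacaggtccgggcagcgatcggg

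In Cited2 the capitals mark ACGTG on both strands, which overlap as 1 palindrome whose first base lies at -153 from the start. In Hilpda the capitals mark CGGAAG, whose first base lies at -151, and the 3 matches of the hypoxia response core lie before a second listed start downstream. In Ddit4 the first bases of ACGTG and GCGTG lie at -187 and -115. On this build Cited2 spans chr10:17723228-17725674, Hilpda chr6:29272488-29275449 and Ddit4 chr10:59949675-59951770. Epas1 spans chr17:86753864-86833410, Hif1a chr12:73901324-73947554, Arnt chr3:95434367-95497240, Egln1 chr8:124908587-124949254 and Egln3 chr12:54178981-54203874.

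The 4 libraries held 1852 to 3097 cells and 11263911 to 18646776 UMIs each (a unique molecular identifier, or UMI, marks 1 captured RNA molecule). Cells were clustered anew, and clusters were named from marker lists, so each name stands for "like" the named type. Levels are CPM, that is, UMIs of the gene scaled to 1000000 UMIs of a cell class in 1 library, and the order of the 4 values is WT replicates 1 and 2, then ERG CKO replicates 1 and 2. Among 2451 ECs, 1071 were general capillary ECs (gCap, which maintain the alveolar capillaries), 313 were aCap ECs (aerocytes, specialised for gas exchange), 85 were arterial and 171 were venous. Erg itself was not lower in the libraries labelled ERG CKO, with 85.5, 88.7, 106 and 81.7 CPM in all ECs (log2 fold change 0.08, SE 0.16, edgeR adjusted p = 0.874). Counts per gene cannot show whether the floxed exons were present, so every direction below is between libraries as labelled. Summed endothelial markers, among them Pecam1 and Cdh5, were at 21029 and 21885 CPM in WT ECs and at 16555 and 17753 CPM in ERG CKO ECs. Over all cells, both replicates 1 carried the female-expressed gene Xist (992 CPM in WT, 1044 CPM in ERG CKO) without a UMI of the Y-linked gene Ddx3y. Both replicates 2 carried Ddx3y (113 CPM in WT, 121 CPM in ERG CKO) without a UMI of Xist, so each group held 1 library of either pattern and the replicate number marks it. A fit with the replicate number as a block, which leaves 1 residual degree of freedom, is given where it changes a call of a member or a HIF target gene. Haemoglobin RNA in gCap ECs was at 40.1, 49.7, 4519 and 6573 CPM. Differences were tested with edgeR on UMIs summed per library and class, with p-values adjusted over all genes of that class and a threshold of 0.05. With 2 mice against 2, an exact permutation test of a single value cannot go below p = 0.333.

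Epas1, the alpha subunit typical of endothelium, was detected at 2583, 2494, 2033 and 2083 CPM in gCap ECs. Both ERG CKO libraries lay below both WT libraries there, but the difference did not pass the test (log2 fold change -0.35, SE 0.11, edgeR adjusted p = 0.165). With the replicate number as a block the value was -0.35 as well and passed the test (edgeR adjusted p = 0.0268). In aCap ECs its level was 1814, 1565, 1466 and 1738 CPM, with overlapping groups (log2 fold change -0.10, SE 0.17). Arterial ECs had 1531, 2040, 1720 and 1806 CPM and venous ECs 1949, 1986, 1695 and 2312 CPM, again with overlapping groups. In EC cluster 1, a group of 547 ECs left unnamed because arterial genes outnumbered gCap genes among its leading genes, Epas1 was at 2861, 2624, 2509 and 2856 CPM. By its markers, gCap was still the closest subtype to this cluster. Its 7 gCap markers summed to 7309, 7730, 5407 and 6501 CPM, against 6261, 6503, 4632 and 4108 CPM in gCap ECs. The log2 fold change of Epas1 over all ECs was -0.27 (SE 0.12, adjusted p = 0.329).

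Hif1a, the alpha subunit found in most cell types, was at 44.0, 54.5, 61.9 and 61.6 CPM in gCap ECs. The ERG CKO libraries were the higher ones, and the difference did not pass the test (log2 fold change 0.28, SE 0.20, adjusted p = 0.63). In aCap ECs it was at 40.0, 24.3, 56.5 and 43.5 CPM, from 13, 13, 38 and 24 UMIs (log2 fold change 0.69, SE 0.36, adjusted p = 0.314). With 1 library left out the Hif1a fold change ranged from 0.13 to 0.44 in gCap ECs and from 0.32 to 1.01 in aCap ECs. Arnt, the shared partner of both alpha subunits, was at 40.9, 40.3, 38.5 and 35.8 CPM in gCap ECs (log2 fold change -0.16, SE 0.21, adjusted p = 0.822). In aCap ECs Arnt was at 30.8, 28.1, 37.2 and 49.0 CPM, with the ERG CKO libraries higher and the difference not past the test (log2 fold change 0.52, SE 0.37, adjusted p = 0.496).

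Cited2, the competitor for p300 and CBP, was at 192, 264, 89.5 and 95.1 CPM in gCap ECs, from 249, 334, 130 and 85 UMIs. Both ERG CKO libraries lay below both WT libraries, and the ERG CKO mean was 0.405 of the WT mean (log2 fold change -1.35), which is the contrast that selected the gene. The clusters that make up gCap ECs hold the same cells, so their values describe that contrast and add no support to it. The ERG CKO libraries were the lower ones in each of these clusters. In EC cluster 0, the largest with 566 cells and with Cited2 itself among its leading genes, the level was 237, 336, 109 and 98.3 CPM. In EC cluster 2, led by interferon-induced genes, it was 132, 182, 79.3 and 103 CPM. In the small EC cluster 7 it was 97.8, 182, 22 and 32.4 CPM, from 2 to 7 UMIs a library. Without EC cluster 0 the log2 fold change in gCap ECs was -1.02, and without WT replicate 2 it was -1.11. It was -0.53 when libraries were clustered without alignment, a setting in which ERG CKO replicate 2 kept 43 gCap cells. Marker sums in gCap ECs also differed between the groups. The 7 gCap markers were at 6261 and 6503 CPM in WT and 4632 and 4108 CPM in ERG CKO. The 9 venous markers were at 437 and 339 CPM against 797 and 581 CPM, the 9 monocyte markers at 40.1 and 44.2 CPM against 129 and 102 CPM, and the 7 platelet markers at 16.2 and 18.2 CPM against 79.2 and 32.5 CPM. The part of these differences in the values of gCap ECs was not tested.

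The share of gCap cells with at least 1 Cited2 UMI was 41.4, 49.4, 29.6 and 30.7%, with exact 95% intervals of 35.9 to 47.1%, 43.7 to 55.0%, 24.1 to 35.6% and 24.1 to 38.0%. Intervals cover counting error only, with cells and not mice as the unit, and describe the same contrast. The median depth of these cells was 4024.5, 3801, 5020.5 and 4593 UMIs, so the ERG CKO cells were the deeper ones. With each cell thinned to 1000 UMIs, and 2, 2, 3 and 4 shallower cells left out, the shares were 16.3, 19.0, 10.1 and 8.57%. In aCap ECs, where Cited2 was lowest, 4.65 to 13.3% of cells had a UMI at median depths of 5710 to 7467.5 UMIs.

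Outside the clusters named gCap, the Cited2 level did not run one way. In EC cluster 1 it was 29.9, 76.5, 24.5 and 22.2 CPM, and in EC cluster 4, a group of 244 ECs left unnamed because it had under 3 markers of any EC subtype, it was 99.2, 156, 68.0 and 40.1 CPM. In aCap ECs it was 15.4, 16.8, 47.6 and 27.2 CPM, from only 5, 9, 32 and 15 UMIs, so here the ERG CKO libraries were the higher ones (log2 fold change 1.19, no test). With 1 library left out that fold change ranged from 0.70 to 1.53. Venous ECs, which the choice of Cited2 did not use, had 115, 87.4, 47.9 and 29.7 CPM, and the lower ERG CKO values did not pass the test (log2 fold change -1.25, SE 0.36, adjusted p = 0.244), whereas they passed it with the replicate number as a block (-1.39, edgeR adjusted p = 0.0238). Arterial ECs had 68.7, 127, 98.7 and 117 CPM, with overlapping groups (log2 fold change 0.09, SE 0.42, adjusted p = 0.999). Over all ECs, where a change in the mix of subtypes cannot be told apart from a change within them, Cited2 was at 124, 153, 64.5 and 58.6 CPM.

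**Figure D1:**
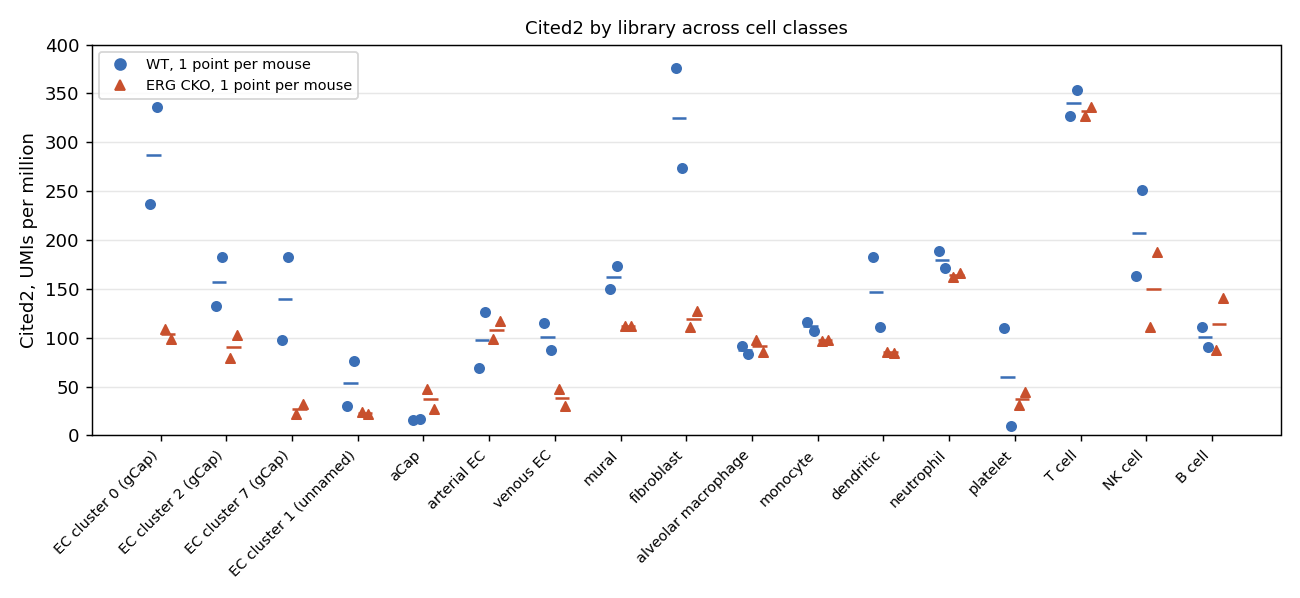
Level of Cited2 in CPM (vertical axis) in EC clusters and cell classes (horizontal axis), with 1 point per mouse and a bar at the mean of each group. Both WT points (circles) lie above both ERG CKO points (triangles) in EC clusters 0, 2, 7 and 1. They do so as well in 6 of the 11 classes tested outside the capillaries, venous ECs and fibroblasts among them. In aCap ECs the WT points lie below, and the 4 T cell values lie together at 327 to 353.

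Egln1, the main prolyl hydroxylase that marks HIF alpha subunits, was at 67.9, 73.4, 81.9 and 84.0 CPM in gCap ECs (log2 fold change 0.18, SE 0.18, adjusted p = 0.745) and at 70.8, 71.1, 96.6 and 111 CPM in aCap ECs (log2 fold change 0.52, SE 0.25, adjusted p = 0.25). The ERG CKO libraries were higher in both capillary classes, and neither difference passed the test. Egln3, a related hydroxylase that HIFs induce, had 1 UMI in gCap ECs, in ERG CKO replicate 1, and none in aCap, venous or mural cells. A count of 0 allows up to 3 UMIs, so its response in capillary ECs was not detectable at this depth.

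Hilpda was high in gCap ECs, at 836, 727, 806 and 872 CPM, with overlapping groups (log2 fold change 0.05, SE 0.14, adjusted p = 0.931). In aCap ECs it was at 631, 576, 355 and 337 CPM, so that both ERG CKO libraries lay below both WT libraries, and the fall passed the test (log2 fold change -0.82, SE 0.17, adjusted p = 0.00418). Arterial ECs had 961, 1258, 846 and 534 CPM and venous ECs 94.6, 78.3, 112 and 119 CPM, and neither difference passed the test (log2 fold change -0.70, SE 0.30, and 0.35, SE 0.30). In the unnamed EC cluster 1 Hilpda was at 1333, 1314, 1151 and 1282 CPM.

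Ddit4 was at 123, 99.5, 142 and 106 CPM in gCap ECs, with overlapping groups (log2 fold change 0.13, SE 0.20, adjusted p = 0.868). In aCap ECs it was at 52.4, 16.8, 144 and 79.8 CPM, from 17, 9, 97 and 44 UMIs, and it rose (log2 fold change 1.83, SE 0.41, adjusted p = 0.00639). Venous ECs showed 90.5, 42.2, 205 and 119 CPM, with the ERG CKO libraries higher and the difference not past the test (log2 fold change 1.4, SE 0.37, adjusted p = 0.198). It passed with the replicate number as a block (1.23, edgeR adjusted p = 0.0238) and without the filter on low counts (1.39, edgeR adjusted p = 0.0117). The value was 1.96 without WT replicate 1 and 1.65 without ERG CKO replicate 2. Among arterial ECs the level was 68.7, 112, 226 and 43.9 CPM, with ERG CKO replicate 1 the highest and replicate 2 the lowest of the 4.

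**Figure D2:**
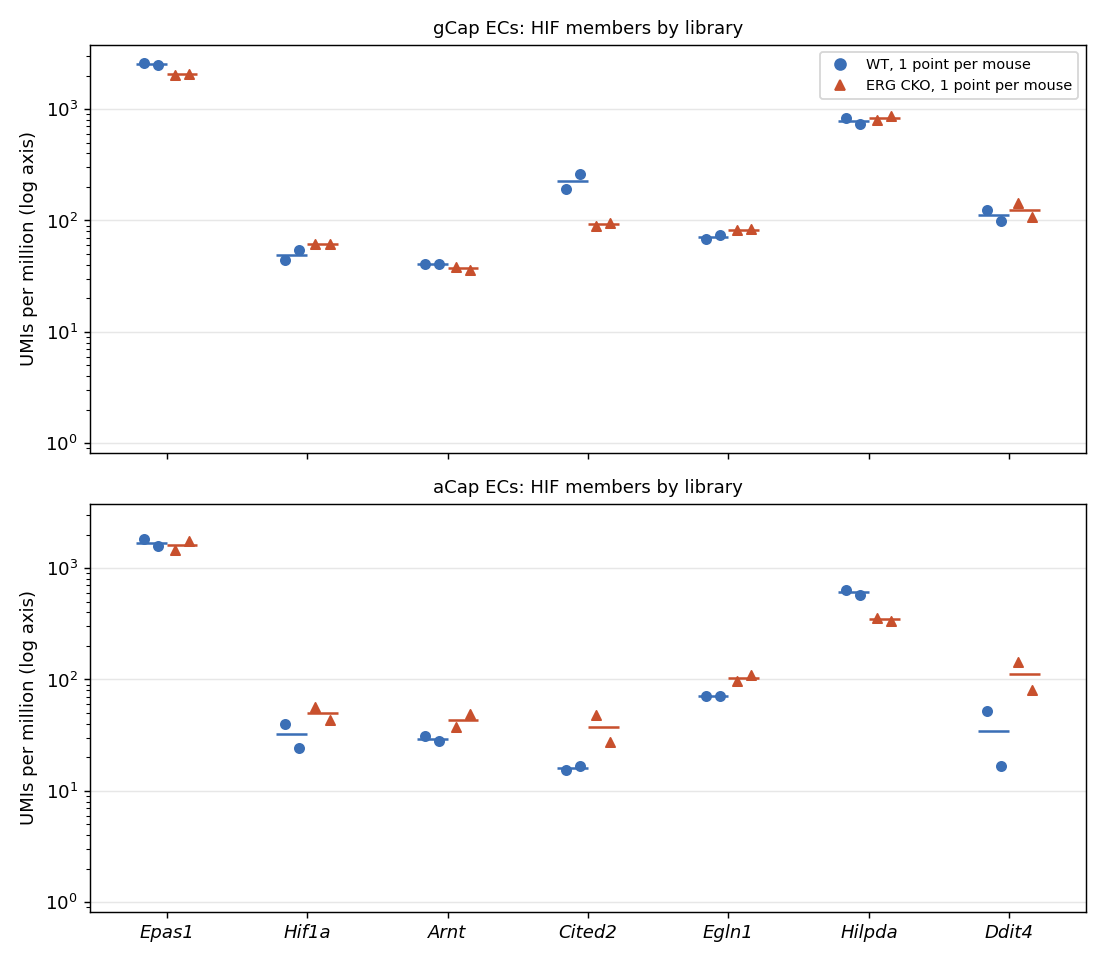
Levels of 7 members in CPM (vertical log axis) in gCap ECs (upper panel) and aCap ECs (lower panel), with 1 point per mouse and a bar at the mean of each group. In gCap ECs the Cited2 points of the groups are apart, which is the difference it was chosen for, and in aCap ECs Hilpda is lower and Ddit4 higher in the ERG CKO libraries.

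Of the 8 members, 7 passed the filter on low counts in gCap ECs. Of the 6 tested, none was called, whereas 2.50% of all genes tested in gCap ECs were called. Epas1 alone had an unadjusted edgeR p under 0.05 there, and DESeq2 called none. In EC clusters 0, 1 and 2 fitted alone, where 2.69%, 1.01% and 1.05% of genes were called, no member was called either, nor over all ECs, where 3.0% of genes were called. In aCap ECs 2 of the 6 members tested were called, against 10.1% of all genes. Among the 12 classes outside the capillaries, 2 of 75 member tests were called, against 0% to 0.733% of all genes, depending on the class.

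Beside the aCap calls, other values differed between the same libraries. The 8 aCap markers summed to 12426 and 11743 CPM in WT aCap ECs and to 4596 and 6507 CPM in ERG CKO, the 10 endothelial markers to 26148 and 25689 CPM against 14794 and 15437 CPM, and the 7 platelet markers to 18.5 and 58.0 CPM against 241 and 94.4 CPM. The class held 43, 72, 105 and 93 cells. The part of these differences in the Hilpda and Ddit4 values was not tested. Without WT replicate 1 the fall of Hilpda kept its size but not its call (log2 fold change -0.77, adjusted p = 0.104), and without WT replicate 2 the rise of Ddit4 lost its call (1.10, adjusted p = 0.208). The Ddit4 value was 2.70 without WT replicate 1 and 1.33 without ERG CKO replicate 1, both called. When libraries were clustered without alignment, the aCap class grew to 355 and 278 cells in the ERG CKO libraries and the Hilpda difference was 0.05.

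The responses of gCap and aCap ECs were then compared directly, in a fit of the interaction of genotype with subtype that was added after the data were seen. In it, 4.55% of 8672 genes were called. Hilpda was called, with a response 0.87 higher on the log2 scale in gCap than in aCap ECs (SE 0.17, adjusted p = 0.00658), and so was Ddit4, with a lower response in gCap than in aCap ECs (difference -1.69, SE 0.37, adjusted p = 0.0134). Without WT replicate 2 the Ddit4 difference was -1.11 (adjusted p = 0.143), and without WT replicate 1 it was -2.41. With cells thinned to 1000 UMIs neither gene was called, with a Hilpda difference of 1.05 (adjusted p = 0.0655) and a Ddit4 difference of -0.65 (adjusted p = 0.851). The differences for Epas1 (-0.26), Hif1a (-0.44), Arnt (-0.68) and Egln1 (-0.34) did not pass the test.

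Levels of the members over the 14 classes, each the mean of 4 libraries, were compared gene by gene. Epas1 was high in mural cells (2336 CPM), gCap ECs (2298 CPM), venous ECs (1986 CPM), arterial ECs (1774 CPM), platelets (1751 CPM) and aCap ECs (1646 CPM), whose ranges overlapped from 1 neighbour to the next, and then in fibroblasts (1373 CPM), whose 4 values lay below those of aCap ECs. The other 7 classes were at 27.2 to 177 CPM. Summed endothelial markers were at 6861 to 10102 CPM in mural cells, 7827 to 12328 CPM in platelets and 106 to 2305 CPM in neutrophils, and their part in the Epas1 level of these classes was not tested. Hif1a spanned a much narrower range, from 107 CPM in alveolar macrophages to 41.1 CPM in aCap ECs, and each class overlapped the next. Arnt ran from 54.3 CPM in fibroblasts to 15.0 CPM in platelets, and Egln1 from 104 CPM in mural cells to 23.1 CPM in neutrophils. Egln3 was highest in neutrophils (18.5 CPM), monocytes (4.51 CPM) and T cells (4.0 CPM), all low values.

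Cited2 was highest in T cells, at 336 CPM, followed by fibroblasts (222 CPM), NK cells (178 CPM), neutrophils (172 CPM) and gCap ECs (160 CPM), and lowest in aCap ECs (26.8 CPM). Each class overlapped the next in that order. Hilpda had its highest mean in arterial ECs (900 CPM) and gCap ECs (810 CPM), which overlapped, and the gCap values all lay above those of aCap ECs (475 CPM). Its lowest mean was in monocytes, at 16.1 CPM. Ddit4 was highest in gCap (118 CPM), venous (114 CPM) and arterial ECs (112 CPM), and its lowest mean was in alveolar macrophages, at 1.63 CPM. AT2 epithelial cells, the surfactant-producing cells of the alveolus, had too few cells for a test, and Cited2 was at 518, 480, 381 and 892 CPM in them.

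**Figure D3:**
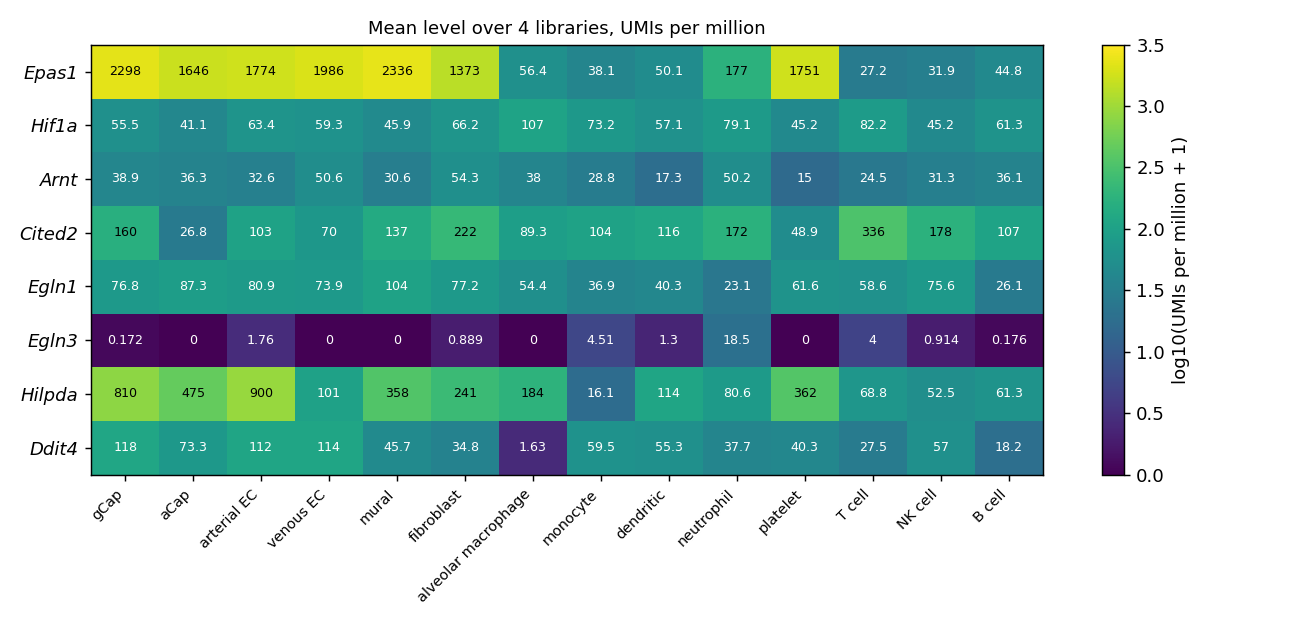
Mean level over 4 libraries of the 8 members (rows) in 14 cell classes (columns), printed in CPM and coloured by log10 of that value plus 1. Within the Epas1 row the vascular, mural, platelet and fibroblast classes are bright and the immune classes dark, whereas the Hif1a row is nearly even.

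Genes with a profile similar to that of each member over these 14 classes were ranked by Pearson's r of log2(CPM + 1) against 10133 genes, as a description in which all values come from the same 4 libraries. Epas1 was closest to Eng, a TGF-beta coreceptor of ECs (r = 0.992), and then to Rhoj and Tjp1 (both r = 0.992). Ddit4 was closest to Klf2, a transcription factor induced by blood flow (r = 0.899), Egln1 to Dctn6 (r = 0.964), Hilpda to Rhpn2 (r = 0.898), Arnt to Usp19 (r = 0.882) and Hif1a to Tnfrsf23 (r = 0.841). Cited2 had the weakest closest match, Prkcz (r = 0.716).

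One of the member calls outside the capillaries was Cited2 in fibroblasts, with 376 and 274 CPM in WT and 111 and 128 CPM in ERG CKO, from 338, 112, 122 and 26 UMIs. Both ERG CKO libraries lay below both WT libraries, and the fall passed the test (log2 fold change -1.48, SE 0.24, adjusted p = 0.0168), in a class where 0.615% of genes were called. It was called under each of 17 alternatives, at log2 fold changes of -2.29 to -1.22 and adjusted p-values of 2.02e-06 to 0.0294. The alternatives that changed only the clustering of ECs leave fibroblasts as they were, so they are no check on this call. The fibroblast class differed in other values too. Its own 8 markers were at 11901 and 12925 CPM in WT and 7735 and 9041 CPM in ERG CKO, and the 7 markers of interstitial macrophages, whose own Cited2 level was 130 to 414 CPM, at 86.7 and 88.0 CPM against 290 and 1016 CPM. The 10 endothelial markers were at 6288 to 7225 CPM in this class. Haemoglobin reached 5546 CPM in ERG CKO replicate 1, and ERG CKO replicate 2 had 28 fibroblasts. The part of these values in the fall was not tested.

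The other call was Epas1 in dendritic cells, at 3.45 and 12.9 CPM in WT and 106 and 77.7 CPM in ERG CKO, from 1, 5, 129 and 44 UMIs in 22, 29, 87 and 38 cells (log2 fold change 3.39, SE 0.47, adjusted p = 0.00768), where 0.733% of genes were called. These levels were far below those of ECs. With 1 and 5 UMIs in WT, Epas1 passed the filter on low counts only through the ERG CKO libraries, where it was high. Its entry into the test thus depended on the rise itself. Endothelial markers in the same cells were at 75.8, 252, 387 and 524 CPM, with none of the 10 at 0. Platelet markers were at 51.7, 59.2, 209 and 652 CPM, neutrophil markers at 68.9, 97.8, 303 and 173 CPM and AT2 markers at 538, 674, 955 and 904 CPM, and the platelet class itself had a mean Epas1 level of 1751 CPM. The part of these markers in the Epas1 rise was not tested. The rise was 4.75 without WT replicate 2 and 2.82 without WT replicate 1, called both times, and with cells thinned to 1000 UMIs Epas1 fell below the filter.

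In the main fits of the remaining classes no member was called. That holds for T cells, where Cited2 was at 327, 353, 327 and 336 CPM (log2 fold change -0.03, SE 0.13, adjusted p = 0.999), for NK cells, B cells, monocytes, mural cells, alveolar macrophages, neutrophils and platelets, and for arterial and venous ECs. The share of all genes called was 0.0334% in T cells, 0.0962% in NK cells, 0.292% in B cells, 0.0504% in monocytes, 0.0672% in mural cells, 0.0384% in arterial ECs and 0.164% in venous ECs. In alveolar macrophages, neutrophils and platelets edgeR called 0% of 9271, 3013 and 1495 genes, with 440, 139 and 50 genes at an unadjusted p under 0.05, and DESeq2 called no member there. Hilpda in T cells was at 98.9, 73.3, 50.8 and 52.1 CPM, with the ERG CKO libraries lower (log2 fold change -0.73, SE 0.17, adjusted p = 0.439). With the replicate number as a block it was called (-0.74, edgeR adjusted p = 1.04e-05), as was Hilpda in dendritic cells (0.95, edgeR adjusted p = 0.0281). In dendritic cells Hilpda was at 51.7, 103, 173 and 129 CPM and not called in the main fit (0.94, adjusted p = 0.309). Without the filter on low counts both were called (-0.74, edgeR adjusted p = 0.0068, in T cells and 0.99, edgeR adjusted p = 0.0271, in dendritic cells).

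By sign alone, Hif1a had a fold above 0 in 11 of the 13 classes where it was tested, and the ERG CKO values all lay above the WT values in 6 of them, as they did for 19.8% of all genes tested over these classes. Ddit4 had a fold above 0 in 10 of 12 classes, with the ERG CKO values all higher in 2, against 20.3% of all genes. Cited2 had a fold above 0 in 3 of 11 classes outside the capillaries, and both ERG CKO libraries lay below both WT libraries in 6 of the 11, against 17.6% of all genes. All of these classes come from the same 4 mice, so they are not independent of each other.

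**Figure D4:**
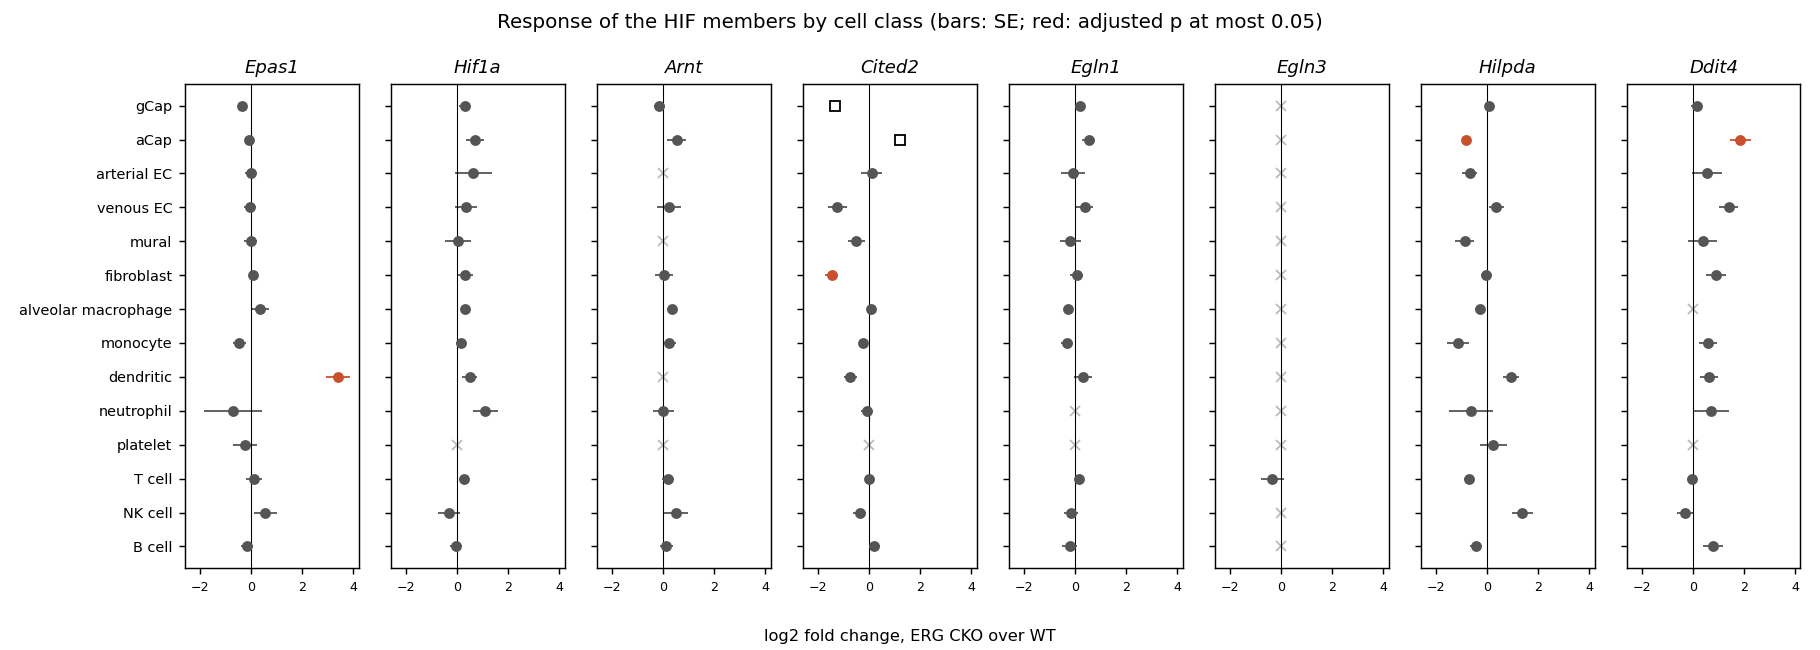
Log2 fold change of ERG CKO over WT (horizontal axis) for each member (panels) in 14 classes (rows), with bars for the SE. Red points passed an adjusted p of 0.05 (Hilpda and Ddit4 in aCap, Cited2 in fibroblasts and Epas1 in dendritic cells), open squares were not tested and crosses had too few counts.

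The response in gCap ECs was also compared with that in all non-endothelial cells, where the Cdh5 promoter is not normally active, by the interaction of genotype with class. There 0.611% of 13086 genes were called, and none of the 7 members tested, with log2 differences of 0.16 for Epas1 (SE 0.32), 0.04 for Hif1a (SE 0.25), -0.34 for Arnt (SE 0.26), 0.27 for Egln1 (SE 0.23), 0.36 for Hilpda (SE 0.25) and -0.16 for Ddit4 (SE 0.23). Egln3 rested on a single UMI in gCap ECs (3.94, SE 3.86). None of the 7 had an unadjusted p under 0.05. Against T cells alone, Hilpda was called (0.78, adjusted p = 0.0221).

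Other genes of the HIF system were then counted in gCap ECs, from lists chosen with earlier results of these data known. Of 16 genes for hydroxylases, the VHL ubiquitin ligase, coactivators and further subunits, 12 were tested and none was called, with a median log2 fold change of -0.07 against -0.00 over all 9147 genes. The best covered were Elob at 340, 332, 345 and 345 CPM and Rbx1 at 241, 269, 253 and 290 CPM, both subunits of the VHL ligase. Of 46 listed HIF target genes 38 were tested, of which 2 rose and 1 fell, or 7.89% against the 2.50% of all genes, with a median of 0.10. Both genes that rose, Apln and Igfbp3, passed the filter on low counts only through the ERG CKO libraries, where they were high. The share is thus a description and no support for a response of the list. In 47.4% of the 38 tested targets the groups did not overlap, against 44.0% of all genes.

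All 3 called targets were among the 9 tested genes for angiogenic and vasoactive proteins. Apln, which encodes the vascular peptide apelin and also stood on the marker list of aCap ECs, was at 3.09, 1.58, 86.7 and 81.7 CPM and rose (log2 fold change 5.07, SE 0.33, adjusted p = 7.1e-05). The 8 aCap markers together were at 421, 452, 672 and 969 CPM in gCap ECs. Igfbp3, a carrier of insulin-like growth factors, was at 2.31, 7.10, 51.6 and 25.7 CPM and rose (3.04, SE 0.51, adjusted p = 0.0148), with 4.01 without WT replicate 2, 2.44 without WT replicate 1 and 2.36 without ERG CKO replicate 1, each called. Vegfa, the main angiogenic growth factor, was at 551, 591, 306 and 386 CPM and fell (-0.78, SE 0.16, adjusted p = 0.0369). Vegfa lost its call without WT replicate 1 (-0.83, adjusted p = 0.155) and without WT replicate 2 (-0.73, adjusted p = 0.328). When libraries were clustered without alignment, Apln and Igfbp3 fell below the filter and Vegfa was at -0.22 (adjusted p = 0.911).

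No gene passed the test of the main fit in the other target groups. Bnip3, listed for mitochondria, autophagy and lipid, was at 0.80 there (edgeR adjusted p = 0.154) and passed with the replicate number as a block (0.82, edgeR adjusted p = 0.0468). With 1 library left out, Bnip3 was at 1.02 without ERG CKO replicate 1 and the glycolytic gene Pfkfb3 at 0.78 without ERG CKO replicate 2. Of 15 tested glycolytic genes the median log2 fold change was 0.11, with Gapdh at 366, 343, 323 and 390 CPM and Aldoa at 289, 288, 279 and 355 CPM. Of 7 genes for mitochondria, autophagy and lipid it was 0.26, with Bnip3l, a mitophagy receptor, at 276, 258, 227 and 289 CPM and Higd1a at 116, 105, 146 and 148 CPM. Of 7 genes for matrix, redox and chromatin it was -0.10, with P4ha2, a collagen hydroxylase, at 43.4 to 44.0 CPM in WT and 53.0 and 26.9 CPM in ERG CKO, and Kdm3a, a histone demethylase, at 48.6, 37.9, 37.2 and 30.2 CPM.

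Programs that can move Ddit4 or accompany dissociation were counted in the same fit, where 2.50% of all genes were called. The groups did not overlap in 25% of glucocorticoid-induced, 80% of integrated stress response and 61.1% of immediate early genes, against 44.0% of all genes. Of 8 glucocorticoid-induced genes 1 rose, the metallothionein gene Mt1, at 9.26, 6.32, 106 and 35.8 CPM (log2 fold change 3.21, SE 0.54, adjusted p = 0.015), and the median was 0.21. Of 5 genes of the integrated stress response 1 fell, Ppp1r15a, a phosphatase subunit, at 732, 699, 470 and 413 CPM (-0.74, SE 0.15, adjusted p = 0.035), and the median was -0.22. Of 18 immediate early and dissociation genes 1 rose, the nuclear receptor gene Nr4a1, at 104, 72.6, 186 and 302 CPM (1.4, SE 0.25, adjusted p = 0.0196), and the median was -0.27. Without WT replicate 2 the changes of Mt1 (2.94, adjusted p = 0.123), Ppp1r15a (-0.78, adjusted p = 0.261) and Nr4a1 (1.16, adjusted p = 0.208) were no longer called, nor was Ppp1r15a without WT replicate 1 (-0.71, adjusted p = 0.223). Mt1 was at 2.12 without ERG CKO replicate 1, still called. When libraries were clustered without alignment, none of the 3 was called, with Mt1 at 1.13 (adjusted p = 0.707), Ppp1r15a at -0.62 (adjusted p = 0.284) and Nr4a1 at 0.10 (adjusted p = 0.981). The part of these programs in the values of the members was not tested.

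**Figure D5:**
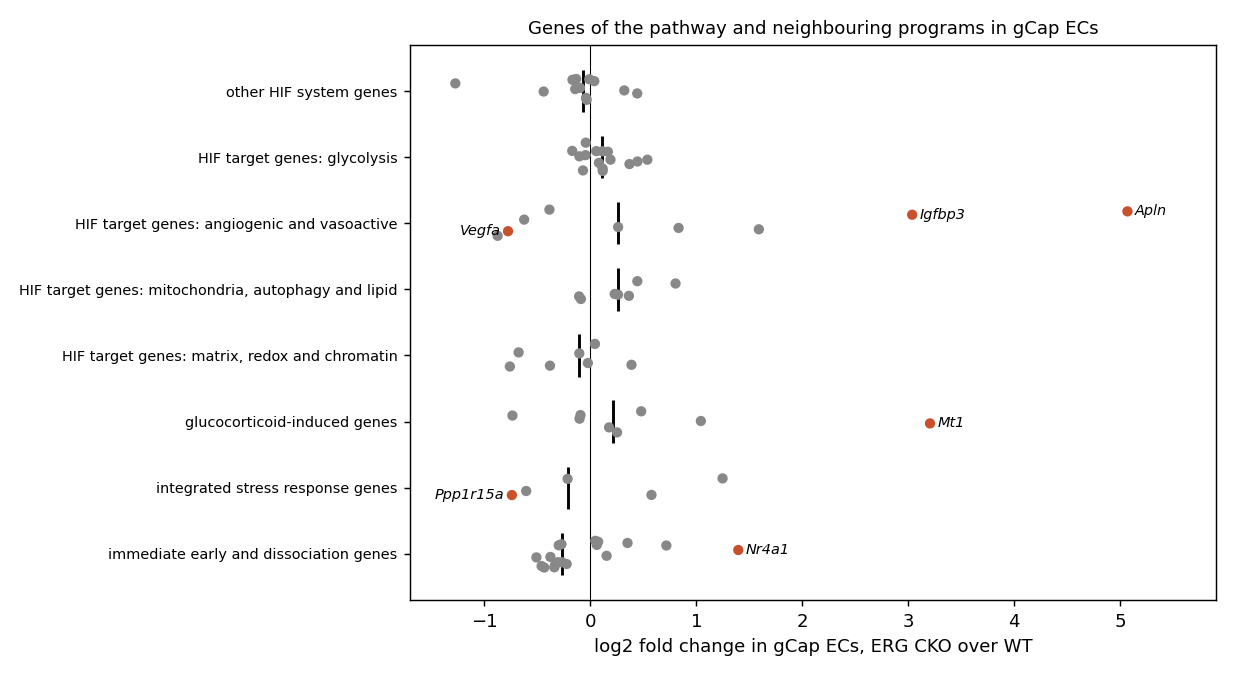
Log2 fold change of ERG CKO over WT in gCap ECs (horizontal axis) for the tested genes of 8 lists (rows), with 1 point per gene and a vertical bar at the median of each list. Red points passed an adjusted p of 0.05, and the 3 farthest to the right are Apln, Mt1 and Igfbp3.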

How the data were processed

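The authors dissociated whole lungs, encapsulated cells with 10x Genomics GemCode chemistry and sequenced the libraries on a NextSeq 500. The submitters' processing notes name Cell Ranger 3.1.0 and mm10. What the authors deposited is a table of UMI counts without normalization, in 1 matrix of 20076 rows and 9363 cells, of which none was removed here. The lowest cell held 500 UMIs and 300 genes, and the depth of each library was 11263911 to 18646776 UMIs. Replicates of a group differed by more than sampling noise. Scrublet called 60 cells (0.641%) doublets, which were kept, with their removal as an alternative. No pair of libraries shared more than 4 barcodes.

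Cells were clustered in Seurat 5.3.0 (canonical correlation alignment, 2000 variable genes, 30 dimensions, resolution 0.8, then ECs alone with 20 dimensions at resolution 0.6) and named from marker lists, each name needing 3 markers. The 8 members and the listed genes, 111 in all, were held out of clustering, as were the 320 genes called in all ECs from the EC step. Counts were summed per library and class and fitted with edgeR 4.0.16 (TMM scaling, its expression filter, quasi-likelihood test, Benjamini-Hochberg adjustment over all genes), in classes with at least 10 cells in every library. The mouse was the replicate. DESeq2 1.42.0 was an alternative. Scripts were tested on simulated data.

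The members and lists were chosen with earlier results of these data known. Genes named from a list were those called in gCap ECs or, where none was, the pair with the highest level. One listed gene is not reported here. The gene likenesses named are the closest by Pearson's r. The rule that left a cluster unnamed when its leading genes pointed to another class was settled after seeing the clusters. Positions and promoters came from RefSeq on GRCm38.p6, the same build as mm10. Same-numbered replicates were not paired in the main fits, since the labels give no shared batch and only 2 pairs exist, but the levels of Xist and Ddx3y match by number, so a fit with the number as a block is an alternative.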

Additional observations from a re-analysis of the deposited data

Results flagged for a closer look

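Hilpda and Ddit4 responded differently in gCap and aCap ECs by the test of the difference itself, with a difference of 0.87 on the log2 scale for Hilpda and -1.69 for Ddit4 (gCap minus aCap). The following contrasts stood out because both ERG CKO libraries lay on one side of both WT libraries in 1 EC subtype and on the other side in another, and for these the difference was not tested. Arnt had a log2 fold change of -0.16 in gCap ECs and 0.52 in aCap ECs. Cited2 had -1.35 in gCap ECs, -1.25 in venous ECs and 1.19 in aCap ECs. Hilpda had -0.82 in aCap ECs and -0.70 in arterial ECs, against 0.35 in venous ECs.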

How the results depend on the processing

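Of 680 values recomputed under alternatives, 608 kept their direction and their side of the threshold, or moved by less than the spread between replicates. The 2 member calls outside capillary ECs became 5 without the filter on low counts and 1 with cells thinned to 1000 UMIs. The 5 added Ddit4 in venous ECs and Hilpda in T cells and dendritic cells. With 1 library left out, values of other pairs went both ways. Hilpda was at 1.80 in NK cells and -1.99 in mural cells without ERG CKO replicate 1. Without WT replicate 2 Hilpda was at 1.61 in dendritic cells and -0.91 in T cells, and Epas1 at 1.10 in alveolar macrophages. Ddit4 in venous ECs was at 1.96 without WT replicate 1 and 1.65 without ERG CKO replicate 2. The 2 calls in aCap ECs became 1 to 2 with 1 library left out, 1 without alignment and 1 with thinned cells. Over all ECs 0 to 1 member was called with 1 library left out (Ddit4 without ERG CKO replicate 2, 0.77, adjusted p = 0.0387). The 3 called HIF targets became 2 to 7 with 1 library left out, 5 without the filter on low counts, 0 without alignment and 1 with thinned cells. The comparison of gCap with non-endothelial cells gave 1 call against T cells. That of gCap with aCap gave 1 to 2 with 1 library left out and 0 with thinned cells.

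With the replicate number as a block, 1 member was called in gCap ECs (Epas1, -0.35, edgeR adjusted p = 0.0268) and 6 outside capillary ECs. In the same fit 5 HIF targets were called in gCap ECs, with Bnip3 (0.82, edgeR adjusted p = 0.0468) and Cxcl12 (-0.88, edgeR adjusted p = 0.00131) added. No share of all genes called is given for this fit or the other alternatives, so these counts cannot be weighed against one. The deviations of the same-numbered replicates correlated at r = 0.198 over 9147 genes, which 2 pairs cannot establish as a pairing, although Xist and Ddx3y also match by number. Among the members, the block added calls for Cited2 and Ddit4 in venous ECs and for Hilpda in T cells and dendritic cells.

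Some directions turned, for the called fall of Hilpda in aCap ECs among others. With 1 library left out, the range was -0.0524 to 0.152 for Hilpda and -0.137 to 0.331 for Ddit4 in gCap ECs, -0.208 to 0.012 for Epas1 in aCap ECs, and, in all ECs, -0.00828 to 0.171 for Arnt and -0.119 to 0.771 for Ddit4. For the difference of gCap from other cells it was -0.377 to 0.704 for Epas1, -0.161 to 0.237 for Hif1a and -0.141 to 4.75 for Egln3, and for that of gCap from aCap -0.883 to 0.126 for Hif1a. Hilpda in gCap ECs was at -0.0187 at resolution 0.4 and -0.0782 without EC cluster 0, a choice made after seeing the data, as was the comparison of gCap with aCap. In aCap ECs Epas1 was at 0.069 with thinned cells and Hilpda at 0.0525 without alignment. The difference from other cells was -0.42 for Epas1 and 0.19 for Ddit4 against T cells and -0.58 for Epas1 against monocytes and macrophages, and that from aCap was 0.61 for Egln1 with thinned cells. The cause of these moves was not tested. With 2 mice a group, the spread rests on few animals, and low counts limit Egln3, Ddit4 and Cited2 in aCap ECs.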

Other observations

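Classes with fewer than 10 cells in at least 1 library were in no comparison, and the values below rest on few cells. In 81 interstitial macrophage-like cells, Cited2 was at 265, 130, 414 and 346 CPM and Hif1a at 91.2, 32.6, 46.0 and 21.6 CPM (WT replicates 1 and 2, then ERG CKO replicates 1 and 2). In 52 AT2-like cells, Epas1 was at 620, 599, 620 and 301 CPM and Hilpda at 47.4, 48.5, 85.8 and 35.7 CPM. In 24 airway-like cells, Ddit4 was at 22.5, 8.16, 82.0 and 34.4 CPM. A low-depth cluster of 590 cells was left unnamed because haemoglobin genes led it, and Epas1 was also among its leading genes, at 4615, 3738, 2875 and 4986 CPM. Its Cited2 level was 0, 50.2, 23.3 and 41.1 CPM, resting on 0 to 9 UMIs a library.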
